A study of Homo sapiens with 6 samples.

Results

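The SLCO genes encode the organic anion transporting polypeptides (OATPs), and 8 of them were examined in MCF10.AT1 cells and in their fluvastatin resistant derivative MCF10.AT1-R. The members were SLCO1A2, SLCO1B3, SLCO2A1, SLCO2B1, SLCO3A1, SLCO4A1, SLCO4C1 and SLCO5A1. They were chosen by gene symbol. They carried 9 of the 135750 probe sets for transcripts, since SLCO1A2 had 2 probe sets and every other member had 1. MCF10.AT1 is a preneoplastic human breast epithelial line of the MCF10A series that carries an activated HRAS, although the sample labels give its cell type as breast cancer. MCF10.AT1-R was selected from it by culture in fluvastatin at doses raised from 1 µM through 5 µM to 20 µM, and MCF10.AT1 was untreated. It is 1 selected line, so its arrays measure the spread between cultures of that line and not between independent selections. Whether fluvastatin was present when RNA was taken from MCF10.AT1-R is not given in the sources used here. Total RNA of 3 biological replicates of each line was measured on Clariom D arrays, named A01, A02 and A03 for MCF10.AT1 and B02, B03 and B04 for MCF10.AT1-R.

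OATPs are membrane carriers that bring amphipathic organic anions into cells without using ATP. Their substrates include bile acids, steroid sulfates, thyroid hormones, prostaglandins and many drugs. Fluvastatin and other statins are carried into hepatocytes by the liver forms, OATP1B1 and OATP1B3, with OATP2B1 as a further carrier. Inside the cell statins block HMG-CoA reductase. Most OATPs outside the liver are better known for hormone and prostaglandin uptake, and in breast epithelium estrone sulfate is a much studied substrate. SLCO1B1, which encodes OATP1B1, was not analysed here.

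Each value is a log2 expression value that the authors made by RMA. The 612 negative control probe sets, designed to match no human transcript, show what a probe set reads without a target. Their median lay between 1.27 and 1.38 on the 6 arrays, and their 95th percentile lay between 2.88 and 3.15. That percentile on the same array was used as the limit for a value above the negative controls. It is a weak limit, because 7 of 14 markers of hepatocytes, endothelial cells, fibroblasts and immune cells also lay above it on all 5 arrays that were compared. Of the 5 hepatocyte markers ALB, TTR and CYP3A4 lay below it on every one of these arrays, APOA1 lay above it on all 5, and the remaining one lay above it on 0 of 2 MCF10.AT1 arrays and 2 of 3 MCF10.AT1-R arrays. All 7 markers listed for basal breast epithelium lay above it, although CDH1 among them is shared with luminal cells. Their summed log2 value was 45.8 to 46.6 on the MCF10.AT1 arrays and 58.2 to 58.5 on the MCF10.AT1-R arrays. KRT17, KRT14, TP63, KRT5 and CDH1 of these rose past an FDR of 5% in limma, by 1.30 (CDH1) to 4.08 (KRT17). Of the 5 luminal markers 3 lay above the negative controls on all 5 arrays and PGR on none, and their sum was 26.1 to 27.0 and 27.9 to 28.9. Of the luminal markers the keratin KRT8 was past an FDR of 5%, with a rise of 1.11 (adjusted p = 0.0358 from limma). KRT18 and GATA3 were also higher on every MCF10.AT1-R array, by 0.85 (adjusted p = 0.243 from limma) and 0.18. ESR1 differed by -0.43 with overlapping arrays. The sum of the 3 endothelial markers was 11.8 to 12.0 in MCF10.AT1 and 10.2 to 10.9 in MCF10.AT1-R, and the hepatocyte, fibroblast and immune sums overlapped between the lines. Of the endothelial markers PECAM1 differed by -1.12 (adjusted p = 0.0307 from limma), while VWF and CDH5 overlapped between the lines. The part of these shifts in any result for the SLCO genes was not tested. Array A03, which the study removed as an outlier, was kept out of the comparison, and its values are given separately. The precision of every value is limited by having 2 arrays of one line and 3 of the other.

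Of the 8 members, SLCO1B3, SLCO2A1, SLCO3A1 and SLCO4A1 lay above the negative controls on all 5 arrays. SLCO5A1 lay above them on some arrays, and SLCO1A2, SLCO2B1 and SLCO4C1 on none. SLCO1B3 rose in MCF10.AT1-R by a log2 change of 1.45, which is 2.74-fold, and it was the only member past an FDR of 5%. SLCO4A1 had the next largest difference, at -0.83, which did not pass the threshold. No member passed the threshold in the lower direction.

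**Figure D1:**
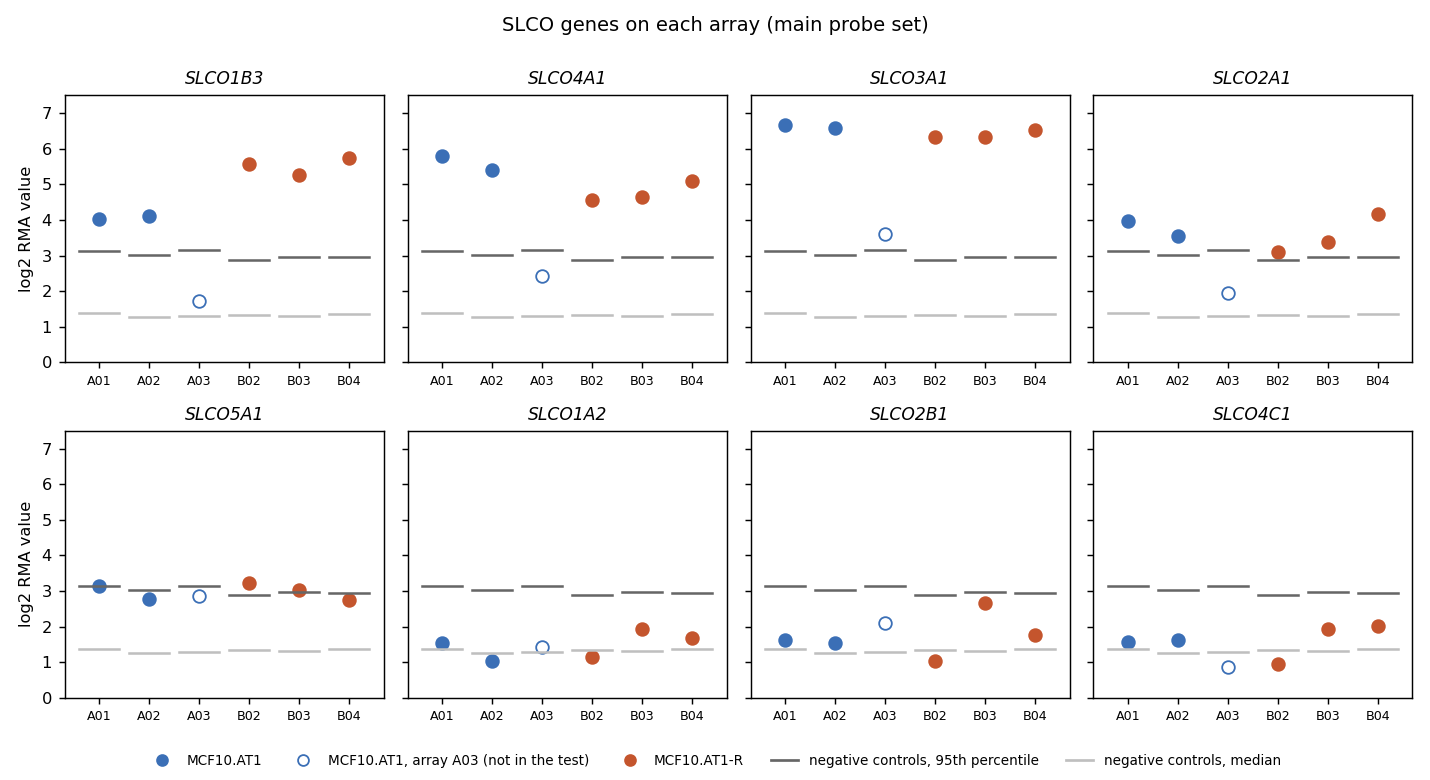
Log2 RMA values (vertical axis) of the main probe set of each of the 8 SLCO genes on each array (horizontal axis), with MCF10.AT1 in blue, array A03 as an open circle and MCF10.AT1-R in orange; the dark and light bars mark the 95th percentile and the median of the negative controls on that array. SLCO1B3 is higher on all 3 MCF10.AT1-R arrays than on A01 and A02, and SLCO1A2, SLCO2B1 and SLCO4C1 lie under the dark bars.

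The upstream sequence of SLCO1B3 is shown because this gene carried the only called change. The RefSeq tables held a promoter window for 5 of the 8 members, matched by symbol. The 250 bases before the annotated start of SLCO1B3 lie on the plus strand at chr12:20810455-20810704 of GRCh38.p14, in lower case throughout because none of the motifs searched was found in it.
SLCO1B3: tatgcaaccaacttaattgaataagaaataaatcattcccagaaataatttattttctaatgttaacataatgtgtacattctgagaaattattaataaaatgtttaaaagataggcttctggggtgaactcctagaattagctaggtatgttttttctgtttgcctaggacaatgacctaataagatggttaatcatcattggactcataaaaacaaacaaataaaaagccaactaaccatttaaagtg
Both strands were searched for the TATA box written as TATAAA, for the AP-1 site written as TGACTCA and for the sterol element of SREBP written as TCACNCCAC. None of these 3 motifs was found in these letters. Over the 35116 promoter windows of the same length, 10.7% held the TATA box, 4.20% the AP-1 site and 0.883% the sterol element. In several cancers SLCO1B3 is also transcribed from another start within the gene. The deposited table gives 1 value for the locus, so transcripts from the different starts were not told apart.

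SLCO1B3 (probe set TC1200012601.hg.1, gene ID 28234, chromosome 12) encodes OATP1B3, the hepatocyte uptake carrier for statins and bilirubin conjugates. Its log2 value was 4.04 on A01 and 4.10 on A02. It was 5.57 on B02, 5.25 on B03 and 5.75 on B04. There was no overlap between the lines, and the lowest MCF10.AT1-R array stood more than 1 log2 unit above the highest MCF10.AT1 array. The parental mean was 4.07 ± 0.04 (SD, n = 2), against 5.52 ± 0.25 (SD, n = 3) for the resistant arrays. The change of 1.45 had a standard error of 0.31 and an interval of 0.84 to 2.06 at 95%, and an adjusted p of 0.000649 (limma, adjusted by the Benjamini-Hochberg method over all tested probe sets). Of the 51457 probe sets tested, 1.2% passed in either direction, 0.758% higher and 0.447% lower in MCF10.AT1-R. In RNA of whole cultures, more cells with the transcript and more transcript per cell cannot be told apart. Only 243 of the 51457 had a larger change in absolute size than SLCO1B3, and 173 had a higher one.

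The call of SLCO1B3 depended on how the variance was estimated and on the arrays used, while its log2 change lay between 1.34 and 1.59 under every alternative that kept A03 out. Leaving out A01 or A02 leaves MCF10.AT1 with 1 array, which is then assumed to vary like MCF10.AT1-R. Its adjusted p from limma was 0.073 without A01, 0.0559 without A02, 0.0593 with the low-expression filter alone, 0.0661 without a filter and 0.164 with values below the negative controls raised to their 95th percentile, and with limma's trend option it was 6.63e-06. On A03 SLCO1B3 read 1.73, within the negative controls. With A03 counted as MCF10.AT1 the change was 2.23 with an adjusted p of 0.777 from limma. On simulated data this fit made more false calls than an FDR of 5% allows, so the adjusted p-values of SLCO1B3 and of the genes called further on may be too small.

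**Figure D2:**
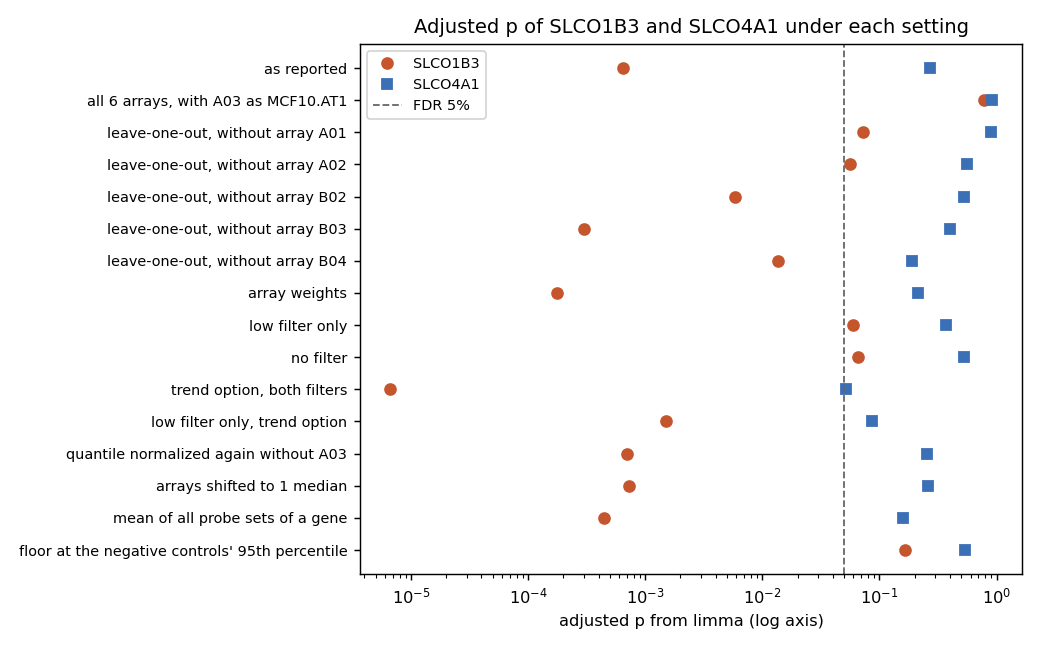
Adjusted p from limma (horizontal log axis) of SLCO1B3 (circles) and SLCO4A1 (squares) under each setting (vertical axis), with the dashed line at an FDR of 5%. The settings are the fit used here, labelled as reported, and 15 alternatives. SLCO1B3 lies left of the line under 9 of the 15 alternatives, and SLCO4A1 lies right of it under all 15.

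SLCO1B3 lies on chromosome 12 in a cluster with SLCO1C1, SLCO1B1 and SLCO1A2, and the array also has a probe set for SLCO1B7, a neighbour with closely related sequence. SLCO1B7 read 1.33 and 1.41 on the MCF10.AT1 arrays. It read 2.03, 1.17 and 1.64 on B02, B03 and B04, so it stayed within the negative controls on every array. SLCO1C1, the thyroid hormone carrier of the blood-brain barrier, read 1.16 to 2.10 over the 5 arrays, also within the controls. The raised signal of the cluster was thus measured on the SLCO1B3 probe set and on neither of these neighbours. Near-identical family members can share probe sequence, and a share of the SLCO1B3 signal from a relative was not tested. SLCO6A1, a testis OATP on chromosome 5 and the remaining SLCO coding gene in the table, read 0.89 to 1.49 and lay within the controls as well.

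SLCO1A2 (gene ID 6579) encodes OATP1A2, a carrier of bile salts, steroid conjugates and drugs in brain capillaries and kidney. Its brighter probe set, TC1200010102.hg.1, read 1.53 and 1.04 on A01 and A02, and 1.15, 1.94 and 1.68 on B02, B03 and B04. The arrays of the lines overlapped at the level of the negative controls. The other probe set, TC1200010101.hg.1, read 0.91 to 1.31 over the same 5 arrays and also overlapped. A03 read 1.41 and 1.06 on these probe sets, and no fold change is given for a gene within the controls in both lines.

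SLCO2B1 (TC1100008453.hg.1, gene ID 11309) encodes OATP2B1, the broadly expressed carrier of estrone sulfate and statins in gut and liver. It read 1.63 and 1.53 on A01 and A02. It read 1.04, 2.68 and 1.76 on B02, B03 and B04, which is the widest spread of any member within a line (SD 0.82, n = 3). All of these values lay within the negative controls, as did A03 at 2.11. SLCO4C1 (TC0500011596.hg.1, gene ID 353189), the kidney carrier of digoxin and thyroid hormone, read 1.56 and 1.63 in MCF10.AT1 and 0.96, 1.92 and 2.02 in MCF10.AT1-R. Its lines overlapped within the controls too, and A03 read 0.85. For these genes a difference between the lines was not detectable at this signal.

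SLCO4A1 (TC2000008023.hg.1, gene ID 28231, chromosome 20) encodes OATP4A1, which carries thyroid hormones and estrone sulfate in many tissues. It read 5.79 on A01 and 5.41 on A02. It read 4.57 on B02, 4.64 on B03 and 5.09 on B04, so that every MCF10.AT1-R array lay below both MCF10.AT1 arrays. The means were 5.60 ± 0.27 (SD, n = 2) and 4.77 ± 0.28 (SD, n = 3). The log2 change was -0.83 with a standard error of 0.31 and an interval of -1.44 to -0.22 at 95% before adjustment, and the adjusted p was 0.269 from limma. With limma's trend option, which lets the variance depend on the level, the adjusted p was 0.0523. Among the tested probe sets 2.91% had a larger change in absolute size. A03 read 2.42, and with it counted as MCF10.AT1 the difference turned to 0.23 (adjusted p = 0.92 from limma).

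SLCO4A1-AS1, a long noncoding RNA annotated on the opposite strand within the SLCO4A1 gene, read 3.55 and 3.58 in MCF10.AT1. It read 3.07, 3.03 and 3.51 in MCF10.AT1-R, below both MCF10.AT1 arrays on every array. Its difference was -0.36 with an interval of -0.97 to 0.25 and an adjusted p of 0.828 from limma. The sources used here do not state whether the probes separate the strands, and whether the antisense and sense values are independent measurements was not tested. On A03 SLCO4A1-AS1 read 2.58.

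SLCO3A1 (TC1500008360.hg.1, gene ID 28232, chromosome 15) encodes OATP3A1, a widely expressed carrier of prostaglandins and thyroxine. It read 6.66 and 6.58 on A01 and A02, and 6.33, 6.34 and 6.52 on B02, B03 and B04. The lines did not overlap, although the gap between the nearest arrays was smaller than the spread within MCF10.AT1-R. Its SD over the 5 arrays was 0.14, below the limit of 0.18 for invariant probe sets, so it was not among the probe sets tested. In limma without a filter the difference was -0.22 with a standard error of 0.19, an interval of -0.64 to 0.20 and an adjusted p of 0.875. SLCO3A1 was the only member above the negative controls on A03, where it read 3.62. With A03 counted as MCF10.AT1 the difference was 0.78.

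SLCO2A1 (TC0300012484.hg.1, gene ID 6578, chromosome 3) encodes the prostaglandin transporter, which takes up PGE2 for breakdown inside the cell. It read 3.96 and 3.55 on A01 and A02. It read 3.11, 3.39 and 4.17 on B02, B03 and B04, and MCF10.AT1-R held both the lowest and the highest array. The difference of -0.20 had an interval of -0.81 to 0.41 (adjusted p = 0.878 from limma), so changes of up to that size in either direction were not separated from none. Its residual SD of 0.48 was above the common SD of 0.34 that limma used for every probe set, while that of SLCO1B3 was 0.21 and that of SLCO4A1 was 0.28. On A03 SLCO2A1 read 1.95, and with A03 counted as MCF10.AT1 the difference was 0.40.

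SLCO5A1 (TC0800010737.hg.1, gene ID 81796, chromosome 8) encodes OATP5A1, whose substrates are little known. It read 3.14 and 2.78 in MCF10.AT1, neither above the negative controls. It read 3.24, 3.02 and 2.75 in MCF10.AT1-R, where 2 of 3 arrays were above them. The lines overlapped, the difference was 0.05 with an interval of -0.57 to 0.66, and the adjusted p was 0.976 from limma. A03 read 2.86.

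**Figure D3:**
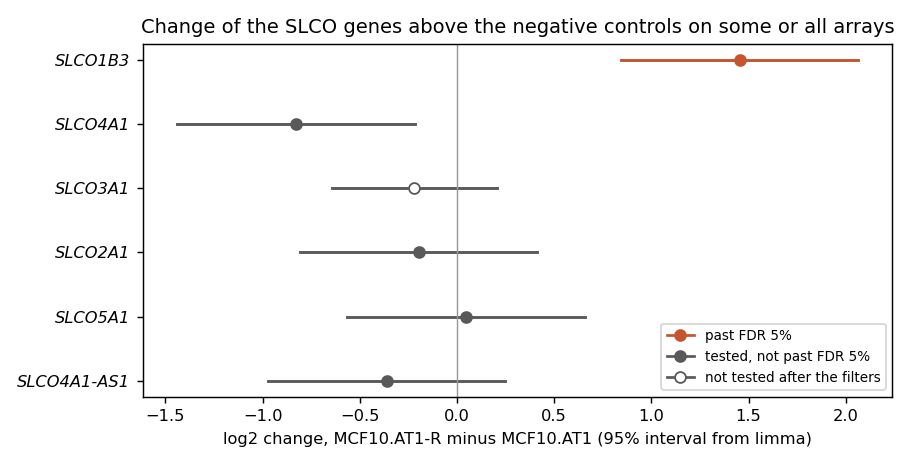
Log2 change of MCF10.AT1-R minus MCF10.AT1 (horizontal axis; point) with its 95% interval from limma (line) for the 5 SLCO genes that lay above the negative controls on some or all arrays and for SLCO4A1-AS1 (vertical axis). The interval of SLCO1B3 runs from 0.84 to 2.06, that of SLCO4A1 from -1.44 to -0.22 before adjustment, and the others cross 0.

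Of the 8 members 4 were tested after the filters, 1 of them passed in the higher direction and none in the lower, and 2 had an unadjusted p under 0.05 in limma. Over all probe sets tested 0.758% passed in the higher direction and 0.447% in the lower, and 8.26% had an unadjusted p under 0.05. The other 4 were removed, SLCO1A2, SLCO2B1 and SLCO4C1 as low and SLCO3A1 as invariant. The median change of the 4 tested members was -0.08, against -0.01 over all probe sets tested. Arrays were separated by line for 1 member in the higher direction and for 2 in the lower, of which 1 each was tested. Over all tested probe sets 12.9% did not overlap in the higher direction and 13.8% in the lower. Since 1 of 4 is a small count, nothing was read from these shares about the family as a whole.

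**Figure D4:**
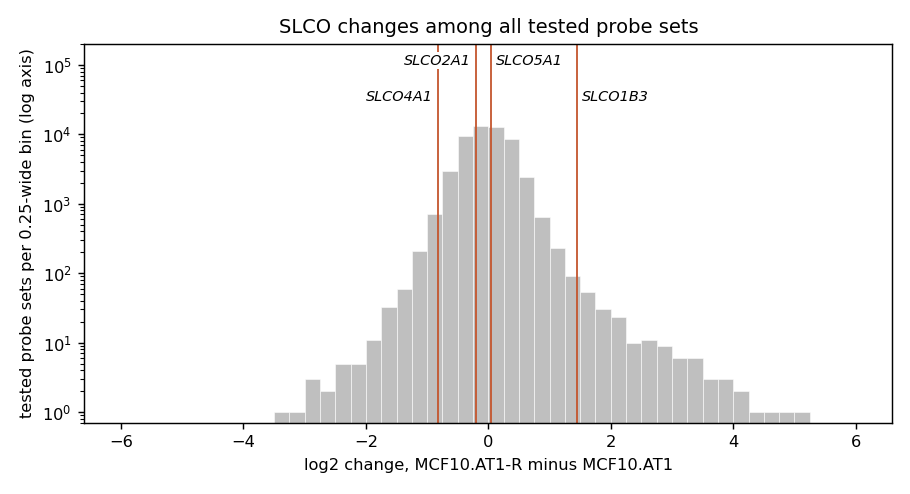
Number of tested probe sets (vertical log axis) by log2 change of MCF10.AT1-R minus MCF10.AT1 in bins 0.25 wide (horizontal axis), with orange lines at the 4 SLCO genes that were tested. SLCO1B3 at 1.45 lies in the upper tail, SLCO4A1 at -0.83 lies on the lower flank, and SLCO2A1 and SLCO5A1 lie near the centre.

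Genes with a pattern like that of SLCO1B3, SLCO2A1 and SLCO4A1 were sought over 35765 other gene symbols by the root mean square difference of log2 values, each probe set centred on its mean over the 5 arrays. SLCO5A1 was left out because neither line had all its arrays above the negative controls. The nearest to SLCO1B3 were YPEL5 at 0.06, CES3 at 0.08 and LIPH at 0.09. YPEL5 encodes a subunit of a ubiquitin ligase complex, CES3 a carboxylesterase and LIPH a secreted phospholipase. YPEL5 read 4.71 and 4.70 in MCF10.AT1 and 6.17, 5.87 and 6.25 in MCF10.AT1-R, with B03 the lowest of these as for SLCO1B3. FRG1CP, a pseudogene, was nearest to SLCO4A1 at 0.07, ahead of the uncharacterised transcripts glyswar and seespar. Both of these transcripts lay within the negative controls on all 5 arrays. For SLCO2A1 the nearest were the transcript jukarby at 0.04, ALG10, a glucosyltransferase of N-glycan assembly, at 0.05, and RP11-63N8.3 at 0.05. RP11-63N8.3 lay above the negative controls on 0 of 2 MCF10.AT1 arrays and 1 of 3 MCF10.AT1-R arrays. With 5 arrays and so many symbols close matches are common, and these are descriptions without a test.

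Lists of genes that share substrates or regulators with the OATPs gave 59 further genes with a value, of which 41 were tested. In limma 3 of the 41 were past an FDR of 5%, 1 higher and 2 lower in MCF10.AT1-R, against 1.2% of all probe sets tested, 0.758% higher and 0.447% lower. The median change of the 41 was 0.03. The 3 were PTGS2, HPGD and SULT1E1, which act on prostaglandins and estrogens.

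Among 8 genes of prostaglandin synthesis and breakdown 5 were tested, PTGS2 rose and HPGD fell. In limma 3 of the 5 had an unadjusted p under 0.05, against 8.26% of all probe sets tested. The third was CBR1, with a difference of -0.66 (adjusted p = 0.523 from limma). PTGS2, the inducible cyclooxygenase that starts prostaglandin synthesis, read 3.20 and 3.34 in MCF10.AT1 and 5.19, 5.62 and 5.22 in MCF10.AT1-R. It rose by 2.07 on the log2 scale with a standard error of 0.31 (adjusted p = 1.86e-08 from limma), with all MCF10.AT1-R arrays above all of MCF10.AT1 and also above A03 at 3.58. HPGD, the dehydrogenase that inactivates PGE2 after uptake, read 5.29 and 5.26 in MCF10.AT1 and 4.13, 3.68 and 3.85 in MCF10.AT1-R. The log2 difference was -1.39 with a standard error of 0.31 (adjusted p = 0.00154 from limma). The prostaglandin carrier SLCO2A1 between them had the difference of -0.20 given above. HPGD no longer passed without A01 (adjusted p = 0.0976 from limma), without A02 (0.0972), with the low-expression filter alone (0.0612), without a filter (0.0711) or with the floor at the negative controls (0.15), while its difference in these settings lay between -1.38 and -1.40. With A03, which read 2.97, counted as MCF10.AT1 the lines overlapped and the difference was -0.62 (adjusted p = 0.777 from limma). PTGS2 was lost with A03 included (0.18) and with the floor at the negative controls (0.0941).

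Of 5 enzymes that make or remove steroid sulfates, substrates of SLCO4A1 and SLCO2B1, 3 were tested and SULT1E1 fell. SULT1E1, the estrogen sulfotransferase, read 4.34 and 4.37 in MCF10.AT1 and 3.18, 2.16 and 2.60 in MCF10.AT1-R, where 1 of 3 arrays was above the negative controls. The fitted difference was -1.71 with a standard error of 0.31 (adjusted p = 1.36e-05 from limma), and with values below the controls raised to their 95th percentile it was -1.30 (adjusted p = 0.058 from limma). It was also lost without a filter (adjusted p = 0.127 from limma), with the low-expression filter alone (0.12) and with A03 included (0.777). On A03 SULT1E1 read 3.08. STS, the steroid sulfatase that releases the hormone, differed by -0.30 with overlapping arrays (adjusted p = 0.839 from limma).

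Of 7 carriers of monocarboxylates and thyroid hormone and their partner proteins 4 were tested, none passed in limma, and 2 had an unadjusted p under 0.05. Over all probe sets tested 8.26% had an unadjusted p under 0.05. For 4 of these 7 genes every resistant array was above A01 and A02, namely SLC16A1, SLC7A5, SLC7A8 and BSG, named after their values were seen. BSG was not among the tested, and over all transcript probe sets 12.2% were separated in this direction. SLC7A8 and SLC7A5, amino acid exchangers that also carry thyroid hormone, differed by 1.01 and 0.80 (adjusted p = 0.0801 and 0.298 from limma).

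**Figure D5:**
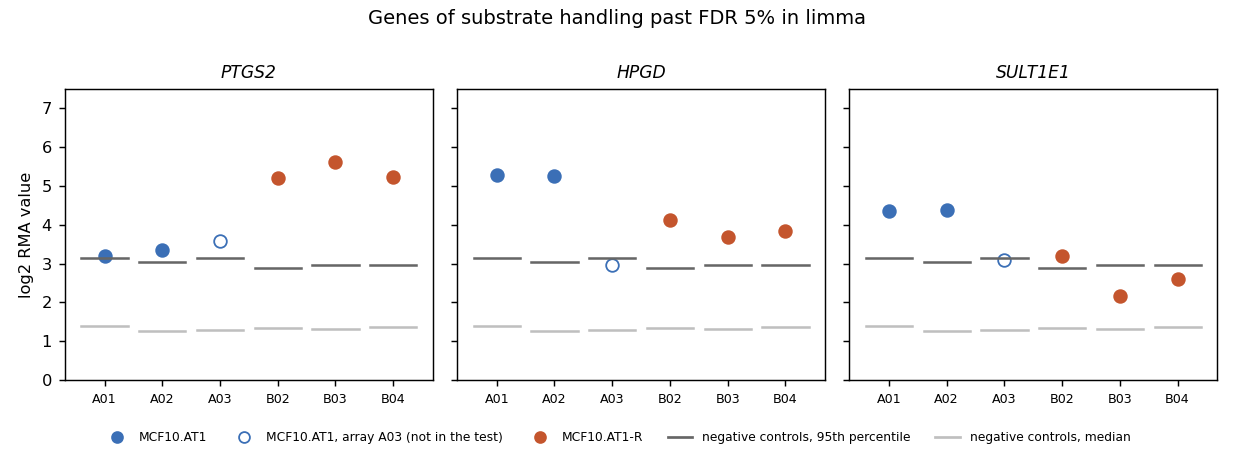
Log2 RMA values (vertical axis) on each array (horizontal axis) of the 3 genes of substrate handling past an FDR of 5% in limma, with MCF10.AT1 in blue, array A03 open, MCF10.AT1-R in orange and bars for the 95th percentile and the median of the negative controls. PTGS2 is higher and HPGD and SULT1E1 lower on all 3 MCF10.AT1-R arrays than on A01 and A02.

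The remaining lists gave no call at an FDR of 5% in limma. Over all probe sets tested 8.26% had an unadjusted p under 0.05. None of 13 tested SLC22 and SLC47 carriers of organic ions passed, and 1 had an unadjusted p under 0.05. This was SLC22A5, with a difference of 0.90 (adjusted p = 0.179 from limma). None of 5 tested bile acid and steroid sulfate carriers passed, and 0 had an unadjusted p under 0.05. SLC10A1, the sodium-dependent bile acid carrier of hepatocytes, differed by 0.19 with overlapping arrays. Of 7 efflux pumps that share substrates with the OATPs 6 were tested, none passed, and 1 had an unadjusted p under 0.05. ABCG2, a pump that exports statins, lay within the negative controls on all 5 arrays. ABCC3 was the 1 pump whose arrays did not overlap, with a difference of -0.68 (adjusted p = 0.492 from limma). Over all tested probe sets 13.8% did not overlap in this direction. Among 7 PDZ proteins and transcription factors known to act on OATPs or their genes 5 were tested, none passed, and 0 had an unadjusted p under 0.05.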

How the data were processed

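RNA of 3 MCF10.AT1 and 3 MCF10.AT1-R cultures was hybridised to Clariom D arrays. The authors deposited log2 values for 138745 probe sets, made by RMA with the Bioconductor packages affy and oligo over all 6 arrays; versions and the genome build are not given in the sources used here. The 2995 control probe sets were left out of the comparison. The plate letter in an array's name gives its line, and the names carry no replicate number of the labels. Probe sets with a mean over A01, A02, B02, B03 and B04 above the median (1.88) and an SD above the lowest 25% (0.18) went into limma 3.58.1 (lmFit, then eBayes; R 4.3.3), and Benjamini-Hochberg adjustment ran over all 51457. This SD filter led limma to 1 common SD of 0.34, which favours variable genes; the fit was tested on simulated data, where the share of false calls exceeded the nominal FDR of 5%. Members removed by a filter were read from limma without one. The highest probe set of a gene over the 5 arrays was used. The members, lists and motifs were chosen with earlier results of these data known. Genes of the lists are named where past FDR 5%, and others named were chosen after their values were seen. Some genes of the lists are not reported here.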

Additional observations from a re-analysis of the deposited data

How the results depend on the processing

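The alternatives changed the arrays, array weights, filters, variance model, normalization, handling of several probe sets, and a floor that raised values under the negative controls' 95th percentile to it. Of the 8 SLCO genes, 1 passed an FDR of 5% in limma under 9 of 15 alternatives, SLCO1B3. Under the other 6 the count was 0, namely with all 6 arrays (1 at an unadjusted p under 0.05), with the low filter only (2), with no filter (2), with the floor (2), without A01 (1) and without A02 (2). Leaving out 1 array gave 0 to 1. The count over all probe sets was 620 in the fit used here, which is not the study's own count. It was 26 with A03 included, 182 with the low filter only, 177 with no filter and 177 with the floor. With the trend option it was 1377, and with the low filter and the trend option 1086. Leaving out 1 array gave 271 to 595. SLCO1B3 changed by 1.34 to 2.23 and was higher in MCF10.AT1-R in all 15, and SLCO4A1 was lower in 14 of 15, the exception being A03 included. No paired analysis was possible because the array names carry no replicate number that the labels share. Signal near the negative controls limits what can be said of SLCO1A2, SLCO2B1, SLCO4C1 and SLCO5A1. In MCF10.AT1 the means of SLCO2A1 (3.75) and SLCO1B3 (4.07) lay within the range of markers of other cell types. Among the endothelial markers CDH5 was at 3.27 and VWF at 4.34. The fibroblast marker COL1A1 had a mean of 7.03 over the parental arrays and 7.18 over the resistant arrays. No SLCO member reached these means, the highest being SLCO3A1 at 6.62 and 6.40. SLCO4A1 (5.60 and 4.77) and SLCO1B3 on the resistant arrays (5.52) were thus also within the range of these markers. The marker next to COL1A1 was APOA1, at 4.68 and 4.73.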
